A study of Aspergillus nidulans with 38 samples.

Results

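In *A. nidulans* mycelium exposed to micafungin, 39 of 9541 genes were low at 20 to 30 min and were back at or above their starting level by 120 min. They were chosen by their own read counts. Raw counts were scaled to 1000000 reads counted on genes in each library (CPM), and the log2 of CPM plus 1 in each library was set against that flask's own library at 0 min. A gene was taken as a member when its mean at 0 min was at least 5 CPM, its mean log2 fold change over 20, 25 and 30 min was -0.7 or lower, and its mean at 120 min was 0 or higher. Of the 6952 genes at or above the minimum level, 84 met the early condition, and 39 of these met the late one. The other 45 were still below 0 at 120 min. Values at 0, 20, 25, 30 and 120 min therefore chose the members and are given as a description. Every other fold change over 0 min shares the 0 min libraries with the choice and is a description too.

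The samples were mycelia of a single parental strain, FGSC A1405 in the growth protocol and AN1405 in the strain field, with no further genotype in the labels. A seed culture of 12 h was moved to YGV medium at 28 °C for about 20 h, and each shake flask then received micafungin in proportion to its dry mycelium, 20 ng/ml per g/kg. Each of the 3 biological replicates was 1 flask, and mycelium was taken from it before the drug (0 min), then every 5 min up to 30 min, every 10 min up to 60 min, at 75 and 90 min and last at 120 min. This gave 38 libraries, with 3 per time point except 15 min, which had 2. All libraries after 0 min had the drug, so change due to the drug and change due to the age, sampling or handling of the culture cannot be told apart.

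Micafungin is an echinocandin that blocks the synthase of β-1,3-glucan, the main structural polymer of the fungal cell wall, and mycelium answers it through the cell wall integrity signaling pathway. Of the 39 members, 22 have a described product or stand on a list of lipid and sterol genes. By role, 5 belong to carbon metabolism, 2 to amino acids, 5 to lipids and the membrane, 2 to iron and heme and 8 to none of these. They include steps of ethanol fermentation, where pyruvate decarboxylase makes acetaldehyde and an alcohol dehydrogenase makes ethanol. Others make fatty acids unsaturated, build heme or carry iron into the cell. The other 17 are uncharacterized or not described in the sources used here and are given by number only.

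The libraries held 5814843 to 10846567 reads counted on genes, with a median of 7964987.5. Replicates of a time point differed by more than counting error, as the chi-square of their counts was 20.2 to 147 times its degrees of freedom. The genes that growing hyphae use (actin AN6542, *gpdA* and the glucan synthase gene AN3729) together made up 5328 to 8284 CPM in all 38 libraries. The 6 marker genes of conidiophores and spores summed to 17.1 to 54.3 CPM, and none was at 0 in all libraries. Their sum was 20.0 to 23.0 CPM at 0 min, 26.0 to 36.5 CPM at 40 min and 29.9 to 51.8 CPM at 120 min, and its part in the results below was not tested. In such bulk samples, fewer cells that express a gene and less of its RNA per cell cannot be told apart.

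The members moved down together within 10 min and stayed low until 50 min. Their median log2 fold change over 0 min, as the mean of the 3 flasks, was -0.24 and -0.65 at 5 and 10 min and -1.02, -1.08 and -1.04 at 20, 25 and 30 min. At 5 min 38 of the 39 were already below 0, and at 10 min all 39 were. Neither was counted over all genes, and both use the 0 min libraries that helped to choose the members. The median was lowest at 40 min, at -1.21, and then -0.79 and -0.50 at 50 and 60 min and 0.22 and 0.51 at 75 and 90 min, before it ended at 1.03. Over the 8290 genes tested below, the median stayed between 0.0068 and 0.058 at all these times. The time of the lowest value was 20 min for 8 members, 25 min for 8, 30 min for 1, 40 min for 18 and 50 min for 4. For all 39 members, the highest mean of the 3 flasks after 0 min was the one at 120 min. Single flasks could be highest sooner. In AN4051 flask 2 was at 3.03 at 60 min and 2.14 at 120 min on the log2 scale. Flask 1 was at 3.93 at 90 min and 3.20 at 120 min, and flask 3 was highest at 120 min, at 2.40.

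**Figure D1:**
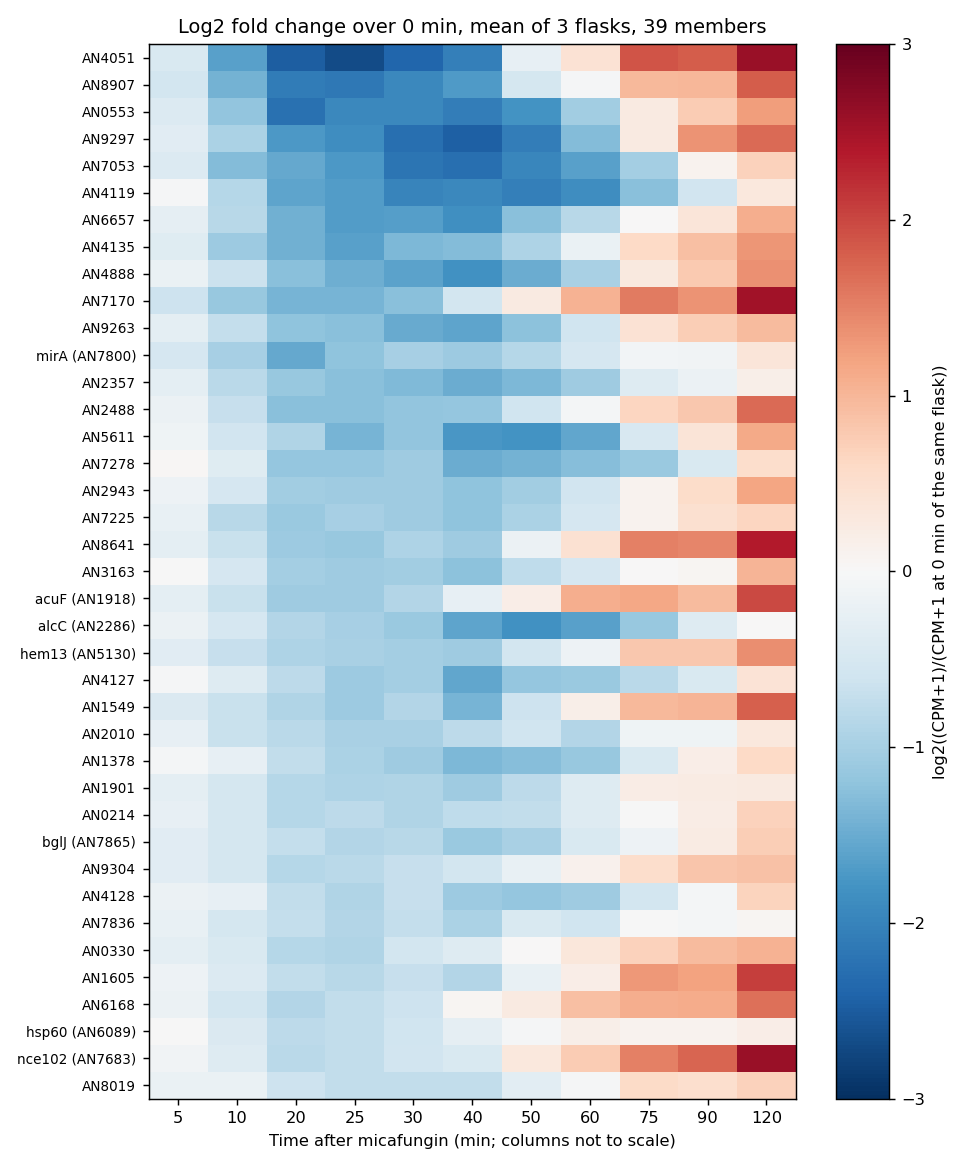
Mean log2 fold change over 0 min of the same flask (colour, blue below 0 and red above) for the 39 members (rows, ordered by their mean at 20, 25 and 30 min) at 11 time points after micafungin (columns, in min). Rows turn from blue to red between 40 and 120 min. AN6168 turns first, *acuF*, AN7170, AN0330 and *nce102* are back at 50 min, and *alcC*, AN4119 and AN7278 are among the last.

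The size of the dip ranged from 1.63-fold to 5.73-fold, with a median of 2.06-fold, and the level at 120 min ranged from 1.01 to 6.0 times that at 0 min, with a median of 2.04 times, both on the scale of CPM plus 1. At 120 min 20 of the 39 stood at a log2 fold change of 1 or more. Most members were genes of middle level. Their mean CPM at 0 min ran from 5.03 to 559.8, with a median of 43.2 against 62.1 over the 6952 genes at or above the minimum. In 25 members each of the 3 flasks had a mean dip of -0.7 or lower, in 13 members 2 flasks did, and in 1 member a single flask did. At 120 min, 31 members were at or above 0 in all 3 flasks and 8 in 2 of them.

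The members went down over the same first 20 min in the 3 flasks but came back at different times. At 40 min the median of the members was -1.25, -1.20 and -1.41 in flasks 1, 2 and 3. At 60 min flask 2 stood at 0.37, with 22 of the 39 members at or above 0, whereas flasks 1 and 3 stood at -0.83 and -0.81, with 8 and 5 members. By 75 min flask 1 had reached 0.40 and flask 2 0.69, and flask 3 was at -0.52. At 90 min flask 3 was still at -0.49, with 28 members below 0, while flask 1 was at 1.04 and flask 2 at 0.87. At 120 min the 3 medians were 1.00, 0.88 and 1.05, with all flasks above their start.

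**Figure D2:**
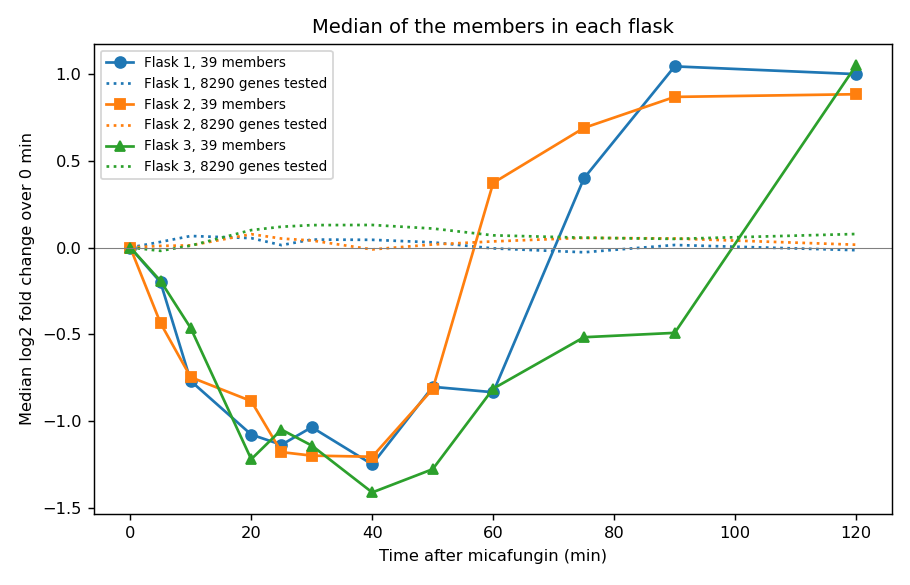
Median log2 fold change over 0 min within each flask (vertical axis) against time after micafungin in min (horizontal axis), for the 39 members (solid lines) and all 8290 genes tested (dotted lines), 1 colour per flask. The members' medians lie together down to 40 min and rise above 0 by 60 min in flask 2, by 75 min in flask 1 and between 90 and 120 min in flask 3.

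The median first time from 40 min on at which a member was at or above its start was 60 min in flask 2, 75 min in flask 1 and 120 min in flask 3. Flask 2 was ahead of flask 1 for 26 members, level for 7 and behind for 6. Flask 1 was ahead of flask 3 for 27, level for 9 and behind for 3. In flask 2, 5 members had not returned by 120 min, and in flask 3, 3 had not. With 1 library per flask and time, this order was not tested. It widens the spread between replicates at 60, 75 and 90 min. The tests of the fall and of the return below both carry it, as they share the same estimate of the spread over all time points fitted.

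The libraries that the rule did not use allow the fall and the return to be tested. They are serial samples of the same 3 flasks whose other libraries chose the members, so the tests are not independent of the choice. edgeR's quasi-likelihood test was fitted to the 5, 10, 40, 50, 60, 75 and 90 min libraries, with the flask as a block and p-values adjusted over 8290 genes. From 5 to 40 min, 7 of the 39 members were called lower (adjusted p under 0.05) and 0 higher, and 0 were higher at an unadjusted p under 0.05 or in DESeq2 and limma-voom. Over all genes tested, 0.35% were called lower and 0.591% higher. The members' median log2 fold change was -1.09 and their range was -3.04 to 0.20, against a median of -0.014 over all genes. In 32 members all 3 flasks were lower at 40 than at 5 min, which was not counted over all genes. In 28 members the 3 libraries at 40 min lay below the 3 at 5 min, as they did for 3.22% of all genes tested. At an unadjusted p under 0.05, 22 members and 5.84% of all genes were lower, and DESeq2 called 16 members lower.

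From 40 to 90 min, 25 of the 39 members were called higher and 0 lower, with 0 lower at an unadjusted p under 0.05 or in DESeq2 and limma-voom, where 2.92% of all genes tested were called higher and 1.07% lower. The members' median log2 fold change was 1.83, with a range from 0.46 to 4.51, against 0.00088 over all genes. All 3 flasks were higher at 90 than at 40 min in 36 members, which again was not counted over all genes. In 28 members the libraries of both times did not overlap, with those at 90 min higher, which held for 7.09% of all genes tested. The 7 members called lower from 5 to 40 min were all called higher from 40 to 90 min, and 14 members were called in neither. Calls in both and in neither were not counted over all genes. At an unadjusted p under 0.05, 37 members and 11.2% of all genes were higher. Both comparisons use the 40 min libraries, so they are not independent of each other.

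The number of calls depended on the flasks used. Without flask 1, 0 members were called from 5 to 40 min and 1 from 40 to 90 min. Without flask 2 the counts were 8 and 17, and without flask 3 they were 0 and 18. Over all genes tested, 0, 25 and 0 were called lower from 5 to 40 min without flask 1, 2 and 3. From 40 to 90 min, 19, 382 and 101 of all genes were called higher. The members' median log2 fold change was -1.13, -1.28 and -0.98 for the fall and 1.56, 1.88 and 1.97 for the return when flask 1, 2 or 3 was left out. Without the replicate block for the flask, 0 and 3 members were called, with medians of -1.05 and 1.83. Over all genes tested, 0 were then called lower in the fall and 12 higher in the return.

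**Figure D3:**
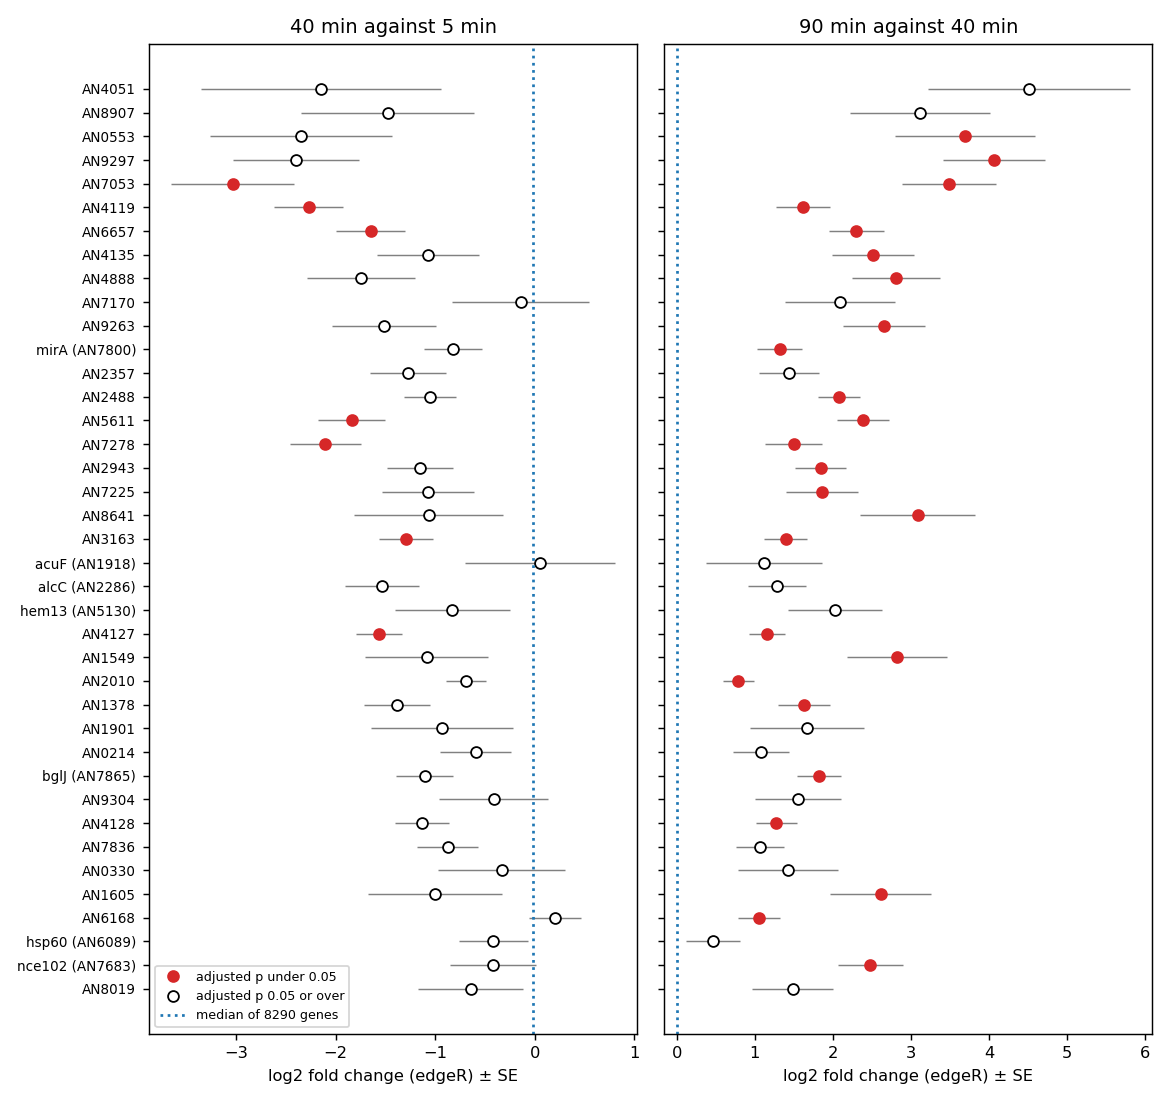
Log2 fold change with its SE from edgeR (horizontal axes) from 5 to 40 min (left) and from 40 to 90 min (right) for the 39 members (rows, in the order of their dip), with filled points for an adjusted p under 0.05 and a dotted line at the median of the 8290 genes tested. 7 points are filled on the left, all below 0, and 25 on the right, all above 0.

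Among the enzymes of carbon metabolism, pyruvate decarboxylase AN4888 was the most abundant member. It was at 616, 607 and 457 CPM in flasks 1, 2 and 3 at 0 min and at 606, 449 and 419.5 CPM at 5 min. It was at 158, 218 and 112 CPM at 40 min, at 2022, 1281 and 346 CPM at 90 min and at 1771, 1171 and 1408 CPM at 120 min. The libraries at 40 min lay below those at 5 min and below those at 90 min with no overlap, and flask 3 was the lowest at both later times of the test. The rise from 40 to 90 min passed the test (log2 fold change 2.81, SE 0.56, adjusted p = 0.0118). The change from 5 to 40 min did not (log2 fold change -1.75, SE 0.54, adjusted p = 0.177).

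The alcohol dehydrogenase gene *alcC* (AN2286), whose product takes the next step to ethanol, was 1 of 9 members whose mean first came back to 0 at 120 min. Its level at 0 min was 351, 361 and 261 CPM in flasks 1, 2 and 3. At 50 min it was at 95.3, 133 and 58.3 CPM, and at 120 min at 441, 419 and 185 CPM, so that flask 3 had not come back. Its mean at 120 min, 0.017 on the log2 scale, was the lowest of all members. From 5 to 40 min its log2 fold change was -1.54 (SE 0.37, adjusted p = 0.0661) and from 40 to 90 min 1.29 (SE 0.37, adjusted p = 0.0643), so neither passed. None of the other genes on the fermentation list met the early condition. The alcohol dehydrogenase gene *alcB* (AN3741) and the aldehyde dehydrogenase gene *aldA* (AN0554) had means of 0.38 and -0.17 at 20, 25 and 30 min on the log2 scale. AN8979 and AN8978 had means of 0.071 and 0.20, and at 0 min, with 0.19 and 1.74 CPM, they were under the minimum.

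Carbonic anhydrase AN5611, which interconverts carbon dioxide and bicarbonate, passed both tests. Its level was 22.2, 20.4 and 14.8 CPM in flasks 1, 2 and 3 at 5 min, 5.32, 5.84 and 5.27 CPM at 40 min and 24.2, 51.8 and 16.5 CPM at 90 min. The 40 min libraries were within 1 CPM of each other and lay below all those at 5 and 90 min. It fell from 5 to 40 min (log2 fold change -1.84, SE 0.34, adjusted p = 0.0186) and rose from 40 to 90 min (log2 fold change 2.39, SE 0.34, adjusted p = 0.00126). Its lowest mean came at 50 min, and at 120 min it had 48.8, 73.6 and 28.2 CPM.

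The gluconeogenic gene *acuF* (AN1918), which encodes phosphoenolpyruvate carboxykinase, and the malic enzyme gene AN6168 were among the 5 members whose mean was back at 0 or above by 50 min, with AN7170, AN0330 and *nce102*. For *acuF* the 25 min libraries held 14.8, 17.8 and 14.6 CPM, the 40 min libraries 18.7, 82.1 and 15.2 CPM and the 60 min libraries 148, 132 and 19.8 CPM. Flask 2 was thus well above the other flasks at 40 min, and flask 3 was far below them at 60 min. Neither comparison passed for *acuF* (log2 fold change 0.05, SE 0.76, adjusted p = 0.991 from 5 to 40 min and log2 fold change 1.12, SE 0.74, adjusted p = 0.47 from 40 to 90 min). AN6168, which converts malate to pyruvate, was at 167, 176 and 76.2 CPM at 25 min, 231, 384 and 133 CPM at 40 min and 473, 637 and 352 CPM at 90 min, against 179, 308 and 191 CPM at 0 min. Flask 1 of AN6168 was near its start at 25 min, and only the rise from 40 to 90 min passed (log2 fold change 1.05, SE 0.26, adjusted p = 0.0363).

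**Figure D4:**
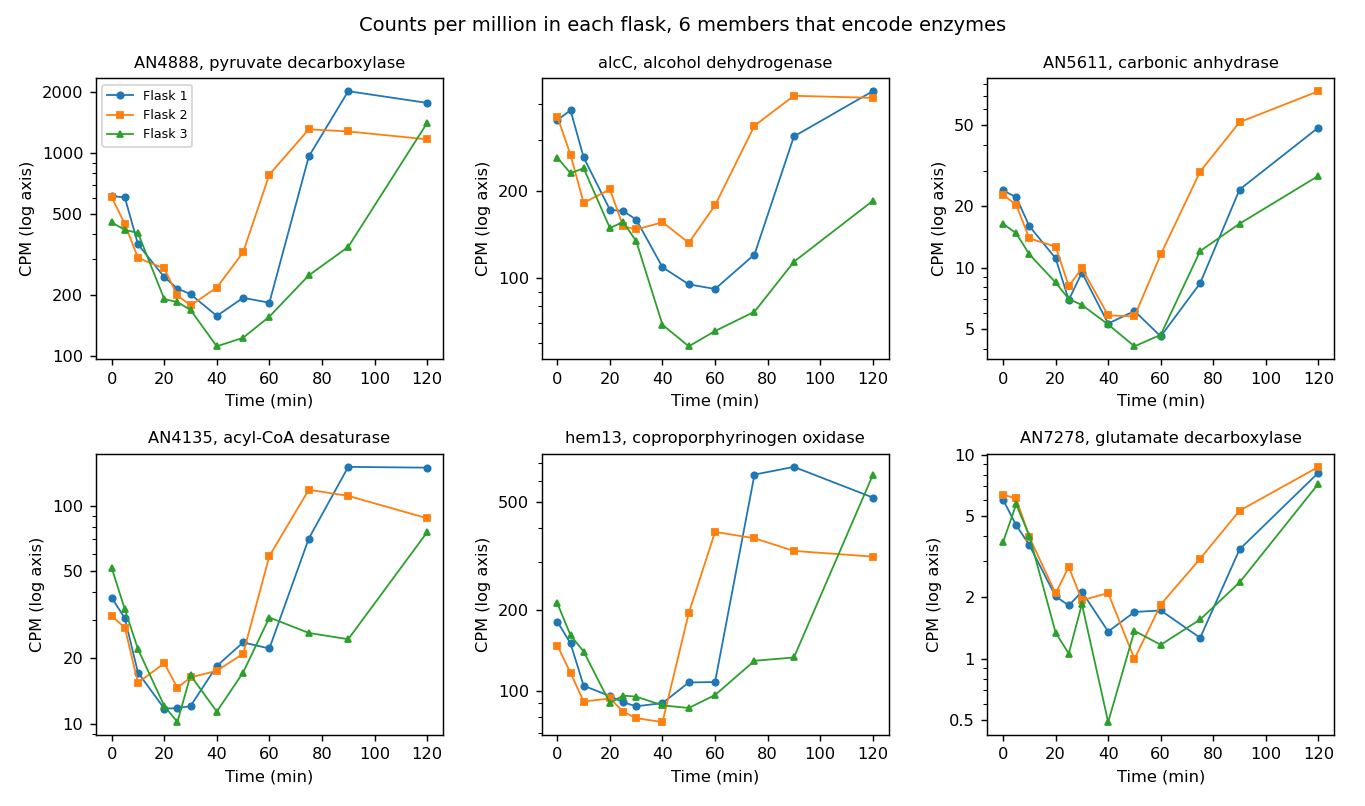
CPM (vertical log axes) against time after micafungin in min (horizontal axes) for 6 members that encode enzymes, with 1 colour and symbol per flask. All 6 are below their start in each flask at 25 min, and at 60 min flask 2 is the highest of the 3 in each of the 6.

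Both members of amino acid metabolism encode carboxy-lyases. Glutamate decarboxylase AN7278, which makes γ-aminobutyrate (GABA) from glutamate, was a gene of few reads. It was at 4.52, 6.11 and 5.72 CPM at 5 min, 1.36, 2.1 and 0.490 CPM at 40 min and 3.44, 5.32 and 2.37 CPM at 90 min. Flask 3 was lowest at 40 min and all libraries at 40 min lay below those of both other times. It fell (log2 fold change -2.11, SE 0.36, adjusted p = 0.013) and rose again (log2 fold change 1.5, SE 0.37, adjusted p = 0.0337). Another glutamate decarboxylase gene, AN5447, had a mean of 0.055 at 20, 25 and 30 min and a log2 fold change of -0.15 (adjusted p = 0.836) from 5 to 40 min, so it was not called lower, and it was called higher from 40 to 90 min, at 0.70 (adjusted p = 0.0446). The gene *gatA*, for the GABA transaminase that takes GABA onward, was called in neither comparison. AN2357, listed with pyridoxal phosphate binding and carboxy-lyase activity, went from 228, 176 and 215 CPM at 5 min to 90.3, 85.1 and 91.0 CPM at 40 min and 356, 266 and 118 CPM at 90 min. Flask 3 had not returned at 90 min, and the adjusted p was 0.161 for the fall and 0.0504 for the return.

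Of the 5 members linked to lipids and the membrane, AN4135, AN9297 and *nce102* were called higher from 40 to 90 min, and all 5 missed the threshold from 5 to 40 min. Acyl-CoA desaturase AN4135 uses oxygen to put double bonds into fatty acids, and the *S. cerevisiae* gene for this enzyme, OLE1, is known to be induced when oxygen is low. AN4135 was at 37.8, 31.2 and 51.8 CPM at 0 min, 11.8, 14.6 and 10.2 CPM at 25 min and 18.4, 17.5 and 11.4 CPM at 40 min. It reached 150.3, 111 and 24.4 CPM at 90 min and 149, 87.4 and 75.4 CPM at 120 min. Flask 3 was still under its 0 min level at 90 min, when flasks 1 and 2 were above theirs. The rise passed the test (log2 fold change 2.51, SE 0.52, adjusted p = 0.0143). Another acyl-CoA desaturase gene, AN6731, was at a higher CPM and did not meet the early condition, with a mean of -0.05 at 20, 25 and 30 min.

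AN8907, listed as an iron-binding oxidoreductase of lipid synthesis, had the second deepest dip. It was at 61.4, 50.5 and 136 CPM at 0 min, 18, 17.1 and 13.6 CPM at 25 min, 390.2, 208 and 41.1 CPM at 90 min and 352, 189 and 284 CPM at 120 min. All flasks were at a like low level at 25 min, although flask 3 had started above both others. Its changes did not pass (log2 fold change -1.48, SE 0.87, adjusted p = 0.545 from 5 to 40 min and log2 fold change 3.11, SE 0.89, adjusted p = 0.0652 from 40 to 90 min). AN9297, with oleate hydratase activity, was at 50.2, 32.6 and 27.0 CPM at 5 min, 8.04, 9.92 and 5.14 CPM at 40 min and 156, 216 and 46.6 CPM at 90 min. Its lowest mean, at 40 min, was -2.45 on the log2 scale, and its rise from there was the largest that passed the test (log2 fold change 4.06, SE 0.66, adjusted p = 0.00321).

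*nce102* (AN7683) encodes a protein of eisosomes, furrows of the plasma membrane, and regulates sphingolipid synthesis. It had a shallow dip and the highest level at 120 min of all members relative to 0 min. The flasks went from 8.70, 9.96 and 5.82 CPM at 0 min to 4.62, 5.86 and 3.05 CPM at 25 min, 59.1, 36.2 and 11.2 CPM at 90 min and 69.3, 38.3 and 55.9 CPM at 120 min, 6.0 times the start on the scale of CPM plus 1. Flask 2 had already regained its 0 min level at 40 min, at 10.3 CPM, when flasks 1 and 3 held 4.95 and 3.18 CPM. The rise from 40 to 90 min passed (log2 fold change 2.48, SE 0.42, adjusted p = 0.00422). AN1901, on the list of lipid and sterol genes, was at 64.8, 48.7 and 103 CPM at 0 min, 29.4, 26.6 and 43.8 CPM at 40 min and 196, 89.6 and 30.8 CPM at 90 min, with flask 3 lower at 90 than at 40 min, and its adjusted p values were 0.669 and 0.234.

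Heme and iron are represented by 1 member each. *hem13* (AN5130) encodes coproporphyrinogen oxidase, an oxygen-using enzyme of heme synthesis, whose *S. cerevisiae* gene is known to be induced when oxygen is low. It went to a narrow range, from 181, 147 and 211 CPM at 0 min to 90.2, 76.7 and 88.4 CPM at 40 min. It was at 108, 388 and 96.6 CPM at 60 min, 676, 330.0 and 133 CPM at 90 min and 520.3, 314 and 629.7 CPM at 120 min. Flask 2 was above its start from 50 min (194 CPM), flask 1 from 75 min (633 CPM) and flask 3 at 120 min. The change from 40 to 90 min, in which flask 3 had moved least, did not pass (log2 fold change 2.03, SE 0.60, adjusted p = 0.0743).

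*mirA* (AN7800) encodes a transporter that takes up iron bound to siderophores, a class of iron carriers. Its level was 8.04, 3.49 and 9.56 CPM at 0 min, 2.47, 1.98 and 3.18 CPM at 40 min, 9.66, 3.41 and 6.36 CPM at 90 min and 10.2, 3.44 and 17.2 CPM at 120 min. The rise from 40 to 90 min passed (log2 fold change 1.32, SE 0.28, adjusted p = 0.0177), and flask 2 was still just under its start at 120 min. Of the other 10 genes on the iron and siderophore list, 5 met the early condition and were below 0 at 120 min. At 20, 25 and 30 min the siderophore synthesis genes *sidA* (AN5823), *sidD*, *sidF* (AN6234) and *sidI* had means of -1.25, -0.83, -0.74 and -0.82 on the log2 scale, and the transporter gene *mirB* of -1.19. At 120 min these stood at -0.29, -0.074, -0.25, -0.50 and -0.68, and *sidD* missed the late condition narrowly. The flasks of these 5 genes lay apart at 0 min, at 516 ± 418, 316 ± 111, 120 ± 63.7, 130 ± 96.3 and 44.9 ± 24.8 CPM (SD, n = 3 flasks). Their dips are given as means only, not by flask. *sreA*, which encodes a repressor of iron uptake, was at 0.36 and 0.23, and the transporter gene *mirC* at -0.11 and -0.22. *sidC* was at -0.34 and -0.51, *hapX* at -0.63 and -0.13 and AN8539, with 0.30 CPM at 0 min, at 0.14 and 0.14.

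A further 8 members have a described product of another kind. *bglJ* (AN7865) encodes a β-glucosidase, an enzyme that releases glucose from short glucan chains, and it held 4.39, 3.87 and 2.93 CPM at 5 min, 1.61, 2.34 and 1.35 CPM at 40 min and 7.41, 8.20 and 3.49 CPM at 90 min. The 40 min libraries lay below those of both other times, and the rise passed (log2 fold change 1.83, SE 0.28, adjusted p = 0.00214).

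AN4119, listed under transmembrane transport, had one of the most uniform dips, at -1.72, -1.63 and -1.71 on the log2 scale in flasks 1, 2 and 3 at 25 min. It was at 26.2, 12.4 and 11.3 CPM at 5 min, 3.09, 5.49 and 2.20 CPM at 40 min and 11.4, 16.7 and 5.61 CPM at 90 min. Groups at 40 min lay below both others, flask 3 was lowest at each of these times, and both changes passed (log2 fold change -2.27, SE 0.35, adjusted p = 0.00546 from 5 to 40 min and log2 fold change 1.62, SE 0.35, adjusted p = 0.0169 from 40 to 90 min). AN7170, with protein dimerization activity, behaved otherwise. It was at 71.8, 95.5 and 96.0 CPM at 0 min and 34.8, 39.7 and 24.9 CPM at 25 min, and at 40 min flask 2 held 130.1 CPM against 51.9 and 29.9 in flasks 1 and 3. At 120 min it reached 559, 406 and 569 CPM, 5.76 times its start as the mean on the scale of CPM plus 1, and neither comparison passed (adjusted p = 0.969 and 0.115). AN2943, with protein kinase activity, had a dip of -1.06 ± 0.032 (SD, n = 3 flasks), the narrowest spread of all members, and rose from 15.5, 17.6 and 6.25 CPM at 40 min to 48.7, 65.5 and 25.7 CPM at 90 min (log2 fold change 1.84, SE 0.33, adjusted p = 0.00643).

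The transport gene AN7225 and AN2010, with hexosyltransferase activity, were also called higher from 40 to 90 min, with log2 fold changes of 1.86 (adjusted p = 0.0359) and 0.79 (adjusted p = 0.0362). AN8019, listed under nucleoside metabolism, was called in neither, and its dip of -0.71 ± 0.42 (SD, n = 3 flasks) was the shallowest.

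The deepest dip of all was that of AN4051, an uncharacterized gene. It stood at 45.2, 40.4 and 101 CPM in flasks 1, 2 and 3 at 0 min, 9.29, 12.8 and 45.9 CPM at 10 min and 7.06, 7.38 and 9.67 CPM at 25 min. It then went to 40.3, 337 and 34.2 CPM at 60 min, 701, 245 and 48.7 CPM at 90 min and 423, 181 and 539 CPM at 120 min. At 60 min flask 2 was far above its start while flasks 1 and 3 were below theirs, and at 90 min flask 3 alone was below. Its change from 40 to 90 min was the largest of the members and, with this spread, missed the threshold (log2 fold change 4.51, SE 1.29, adjusted p = 0.0651).

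AN7053, also uncharacterized, had the largest fall of the members from 5 to 40 min by edgeR's log2 fold change. That value rests on few reads at 40 min. It went from 8.26, 2.75 and 5.32 CPM at 5 min to 0.742, 1.17 and 0.245 CPM at 40 min and back to 8.73, 11.4 and 4.49 CPM at 90 min, with no overlap between 40 min and either other time. Both changes passed (log2 fold change -3.04, SE 0.62, adjusted p = 0.0334 from 5 to 40 min and log2 fold change 3.49, SE 0.60, adjusted p = 0.00492 from 40 to 90 min). AN6657, a gene of middle level, went from 67.0, 59.5 and 45.8 CPM at 5 min to 21, 18.1 and 16.9 CPM at 40 min and 126, 115 and 48.5 CPM at 90 min. The flasks lay close together at 40 min and apart at 90 min, and both changes passed (log2 fold change -1.65, SE 0.35, adjusted p = 0.036 and log2 fold change 2.30, SE 0.35, adjusted p = 0.00214). AN3163 likewise passed both, with 63.1, 49.3 and 53.2 CPM at 5 min, 24.1, 20.4 and 24.9 CPM at 40 min and 74.9, 72.4 and 35.9 CPM at 90 min (log2 fold change -1.29, SE 0.27, adjusted p = 0.0353 and log2 fold change 1.39, SE 0.27, adjusted p = 0.00995).

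AN4127 and AN4128 have consecutive numbers and were the only members with another member among the 3 genes on either side. AN4127 was at 68.3, 73.3 and 34.1 CPM at 5 min, 25.5, 28.5 and 9.18 CPM at 40 min and 40.7, 77.5 and 22.9 CPM at 90 min, and it passed both tests (log2 fold change -1.57, SE 0.23, adjusted p = 0.0046 and log2 fold change 1.16, SE 0.23, adjusted p = 0.0112). AN4128, at a lower level, was at 8.0, 9.98 and 5.05 CPM, 3.71, 5.49 and 1.96 CPM and 6.75, 16.9 and 4.49 CPM at these times, and its rise passed (log2 fold change 1.28, SE 0.27, adjusted p = 0.0143) while its change from 5 to 40 min had an adjusted p of 0.0638. In both genes flask 2 was highest and flask 3 lowest at each of these times, so their groups overlap between 40 and 90 min although every flask rose. As the strand setting of the counting is not known, reads of overlapping genes could be shared between them.

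Among the other members with no described role, AN0553, AN8641, AN1549, AN9263 and AN1605 had large rises from 40 to 90 min that passed the test. AN0553 went from 1.24, 1.87 and 1.71 CPM to 35.1, 24.5 and 5.98 CPM (log2 fold change 3.69, SE 0.89, adjusted p = 0.0311). AN8641 went from 4.33, 5.60 and 4.04 CPM to 91.9, 38.4 and 8.60 CPM (log2 fold change 3.09, SE 0.74, adjusted p = 0.0294). In both genes flask 3 had risen least by 90 min, and by 120 min AN8641 had 79.1, 39.8 and 71.2 CPM. AN1549 went from 15.5, 18.6 and 13.1 CPM to 243, 122 and 22.8 CPM (log2 fold change 2.82, SE 0.64, adjusted p = 0.0235), with flask 3 again the lowest. AN9263 went from 7.30, 8.29 and 5.14 CPM to 74.3, 46.3 and 16.3 CPM (log2 fold change 2.65, SE 0.52, adjusted p = 0.0107) with no overlap. AN1605 went from 5.19, 5.25 and 3.31 CPM to 50.8, 38.7 and 5.24 CPM (log2 fold change 2.61, SE 0.65, adjusted p = 0.0358), and here flask 3 at 90 min was at the level of flasks 1 and 2 at 40 min. AN2488 (log2 fold change 2.08, SE 0.27, adjusted p = 0.000592) and AN1378 (log2 fold change 1.63, SE 0.33, adjusted p = 0.013) were called higher too. AN0214 and AN7836 were called in neither comparison, and their dips were -0.85 ± 0.082 and -0.77 ± 0.11 (SD, n = 3 flasks).

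The genes of these pathways, taken from lists written from general knowledge that include the members, were seldom called. From 5 to 40 min edgeR called 0 of 11 iron and siderophore genes, 0 of 5 fermentation genes, 0 of 8 lipid and sterol genes and 0 of 9 glycolysis genes. At an unadjusted p under 0.05, 4, 2, 1 and 5 of these were lower and 0 higher, and DESeq2 called 0, 2, 0 and 1 lower. The 2 fermentation genes lower at that unadjusted p were the members AN4888 and *alcC*, and *mirA* was among the 4 iron genes. The list medians were -0.47, -0.28, -0.25 and -0.37 on the log2 scale, against -0.014 over all genes tested. Of the 3 genes of the GABA shunt, only AN7278 was called lower. edgeR called 0 of 14 enzymes of plant polysaccharide breakdown (unadjusted, 2 higher and 4 lower, and by DESeq2 1 of each), 0 of 7 calcium pumps and channels (unadjusted, 1 of each, and by DESeq2 1 lower), 0 of 13 secondary metabolite synthases (unadjusted, 1 lower, and by DESeq2 0) and 0 of 6 iron-using proteins (0 in each way). limma-voom called 0 in each of these lists but the GABA shunt.

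From 40 to 90 min 5 of the 10 genes called on these lists were members, AN7278 among them. *mirA* was the only gene called of the 11 of iron and siderophores, AN4888 of the 5 of fermentation and AN4135 of the 8 of lipids and sterols, each higher. Of the 14 enzymes of plant polysaccharide breakdown, *bglJ* and the xyloglucanase gene AN1542 were called higher. AN1542 had a log2 fold change of 2.36 (adjusted p = 0.00348), and its 2.58 CPM at 0 min lay under the minimum. *pmcC* (AN8399), which encodes a calcium pump, was the only one called of 7 calcium pumps and channels, at 2.25 (adjusted p = 0.00294), and it too was just under the minimum. Of the 9 glycolysis genes, hexokinase AN7459 was called lower, at -0.47 (adjusted p = 0.0152). edgeR and limma-voom called 0 of 13 secondary metabolite synthases (unadjusted, 3 lower, and by DESeq2 2) and 0 of 6 iron-using proteins (unadjusted, 1 higher and 2 lower, and by DESeq2 0). Among the 6 conidiophore and spore markers, *brlA*, the regulator that starts conidiation, was called higher in both comparisons, at 1.71 (adjusted p = 0.0035) and 1.11 (adjusted p = 0.00646), and no other marker was. The 3 hyphal genes were called in neither (unadjusted, 0 and 1 lower, and by DESeq2 0 and 1).

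For 3 members, chosen here after their values were seen, the mean over flasks hides opposite courses. AN9304 was at 81.7, 337 and 147 CPM in flasks 1, 2 and 3 at 0 min, 88.4, 121 and 70.5 CPM at 25 min and 291, 172 and 498 CPM at 120 min. AN0330 was at 27.1, 195 and 61.1 CPM, 40.5, 51.0 and 22.9 CPM and 147, 102 and 197 CPM at the same times. In both genes flask 2 started highest, went down and did not return, flask 1 ended above its start, and only flask 3 went down and came back. Flask 1 had hardly a dip in AN9304. In AN0330 it stood above its start throughout, at 0.47, 0.56 and 1.13 on the log2 scale at 20, 25 and 30 min. *hsp60* (AN6089), which encodes a chaperonin that folds proteins in mitochondria, was at 141, 187 and 483 CPM at 0 min, 262, 133 and 78.3 CPM at 25 min and 293, 289 and 227 CPM at 120 min. Here flask 3 started highest and dropped, flask 1 was above its start at 25 min, and the mean dip of flask 2 was -0.50. Its mean dip was -0.71 ± 1.55 (SD, n = 3 flasks), and with any 1 flask left out it no longer met the rule. All 3 genes missed the threshold in both comparisons, with adjusted p of 0.137 or more.

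**Figure D5:**
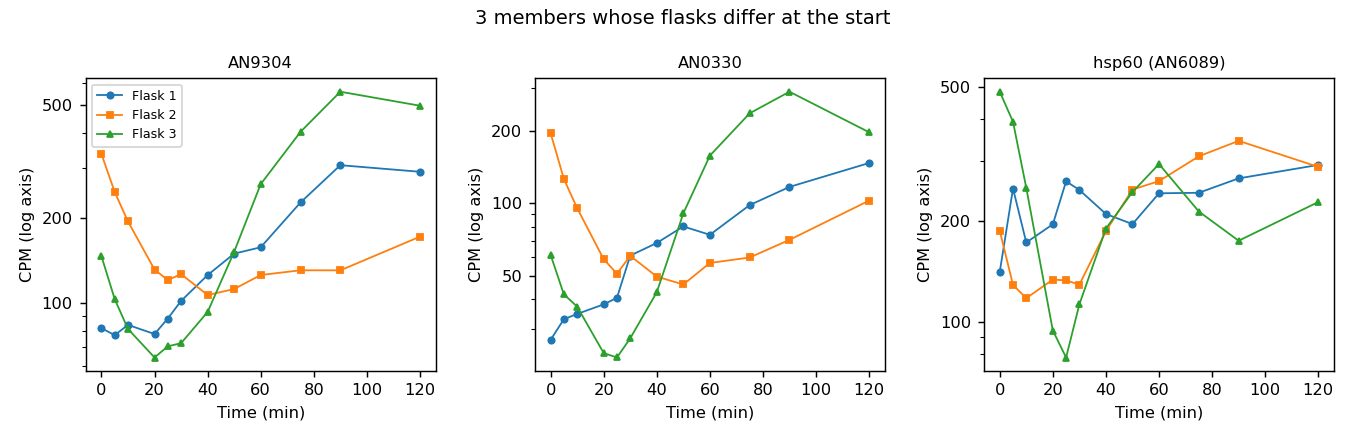
CPM (vertical log axes) against time after micafungin in min (horizontal axes) for AN9304, AN0330 and *hsp60*, with 1 colour and symbol per flask. The flasks start apart and take different courses, and in *hsp60* the deep dip is seen in flask 3.

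When the rule was applied to 2 flasks at a time, 26 of the 39 members were kept whichever flask was left out, 5 were kept in 2 of the 3 settings, 7 in 1 and 1 in none. The number of genes that met the rule was 51 without flask 1, 43 without flask 2 and 55 without flask 3, and of the 39 members 34, 30 and 31 were among them. At the level threshold, *bglJ* with 5.03 CPM and AN7278 with 5.38 CPM were just inside, and the calcium pump gene *pmcC* (AN8399) with 4.99 CPM and AN2704 with 4.85 CPM just outside. At the early threshold, AN8019 with -0.71 and *nce102* with -0.71 were just inside, and AN8544 with -0.70 (above -0.7 before rounding) and AN3344 with -0.68 just outside. At the late threshold, *alcC* with 0.017 and AN7836 with 0.060 were inside, and AN6810 with -0.050 and *sidD* with -0.074 outside.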

How the data were processed

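RNA-seq read counts from *A. nidulans* mycelium at 13 time points of micafungin were analysed, with libraries assigned to times and flasks by their labels. With the flask as a block, p-values measure the spread left once lasting differences between the 3 flasks are taken out, pooled over 7 time points. The fit treats what is left in the serial samples of a flask as independent. Per the labels and the study's methods, the authors aligned reads with HISAT2, counted them per gene with HTSeq and used DESeq2. For the strand setting, the sources used here give nothing. The authors deposited 12 tables with raw counts of 9541 genes, which are the values used here. Each table also holds a normalized signal, log2 fold changes and p-values of the authors' own comparisons, which were not used. The 71 normalized columns were set aside, and the 33 repeated 0 min count columns were identical. The labels and the deposited column disagree on the replicate number of 1 library at 15 min, so 15 min entered no fit and no rule.

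Counts were scaled to CPM in Python 3.11.15 with a pseudocount of 1 CPM. A gene was tested if 2 or more replicates had reads for it at every time point (8290 genes, all 39 members among them). Each library held 5814843 to 10846567 reads. The 21 libraries at 5, 10, 40, 50, 60, 75 and 90 min were fitted together in R 4.3.3 with edgeR 4.0.16 (TMM, quasi-likelihood, replicate block, Benjamini-Hochberg adjustment, threshold 0.05). DESeq2 1.42.0 and limma-voom (limma 3.58.1) were alternatives, as were other scalings, filters, time points and leaving out each replicate. The SE given with a fold change is the absolute fold change divided by the root of F from its test. The replicate number pairs the libraries because each flask was sampled in series. The deviations from the mean of a time point correlated across genes between 5 and 40 min at 0.21, 0.38 and 0.35 in replicates 1, 2 and 3, and between 40 and 90 min at -0.011, 0.36 and 0.41. On simulated counts of 8260 genes for the comparison of 40 with 5 min, 60 of 66 genes with a 4-fold change were called, as were 41 of 67 with 2-fold and 15 of 67 with 1.5-fold, beside 3 calls of unchanged genes. For 90 with 40 min, 54, 35 and 14 of them were called, beside 3 false ones. The simulated libraries had independent noise with no lasting difference between flasks, and genes of few reads were not among those changed. These counts therefore do not show how the fit treats serial samples of a flask.

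Gene names came from the study and from RefSeq's assembly ASM1142v1, which held 8939 of the 9541 IDs and 37 of the 39 members. The members, the lists and the comparisons were chosen with earlier results of these data known. Named with values were members with a gene name or on a list, neighbouring members, the 10 deepest dips, the 5 highest at 120 min, the 10 largest called changes of each comparison that went the same way in all 3 flasks, and the 2 genes nearest each threshold on either side.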

Additional observations from a re-analysis of the deposited data

How the results depend on the processing

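The number of members was 29 to 57 under other scalings, pseudocounts, minimum levels and subsets of flasks. It was 42 with TMM, 44 with DESeq2 size factors, 40 and 29 with a pseudocount of 0.5 and 5 CPM, 45 and 31 with a minimum of 1 and 10 CPM, and 57 with fold changes of the mean CPM. Leaving out a replicate gave 43 to 55.

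DESeq2 called more genes than edgeR. From 5 to 40 min it called 16 members and 111 genes higher and 88 lower in all, and from 40 to 90 min 424 higher and 220 lower. Without the replicate block, 0 members and 0 genes in either direction were called from 5 to 40 min, and 3 members, 12 genes higher and 1 lower from 40 to 90 min. With the 2 time points fitted alone, the counts were 0, 0 and 0, and 3, 11 and 0. From 10 to 40 min 0 members were called, with 7 genes higher and 2 lower, and from 60 to 90 min 1 member, with 13 higher and 2 lower. Leaving out a replicate gave 0 to 8 members, 0 to 127 genes higher and 0 to 25 lower from 5 to 40 min, and 1 to 18 members, 19 to 382 higher and 5 to 63 lower from 40 to 90 min. All these fits but those with DESeq2 and without the block use fewer libraries or other times. The counts were within 1.5 times with DESeq2 size factors in edgeR, limma-voom and no filter on low counts.

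Among the 39 members, 5 changed direction in some setting from 5 to 40 min, none of them called. *acuF* (AN1918) was at -0.00050 with DESeq2, and AN7170 at 0.21 with limma-voom, 0.31 without the replicate block, 0.054 with the 2 time points alone and 0.45 against 10 min. *hsp60* (AN6089) was at 0.13 against 10 min. With a replicate left out, the log2 fold change ran from -0.82 to 0.74 for *acuF*, -0.70 to 0.64 for AN7170, -0.89 to 0.26 for AN9304, -0.99 to 0.59 for AN0330 and -0.75 to 0.088 for *hsp60*. From 60 to 90 min *acuF* was at -0.21. The cause was not tested.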
